A study of Arabidopsis thaliana with 15 samples.

Results

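The Integrase-type AP2/ERF transcription factors of Arabidopsis thaliana were followed through closed flower buds of 5 genotypes. The members were all genes whose deposited description holds the words Integrase-type DNA-binding, which gave 85 of the 33323 genes of the table. RNA came from unopened flowers of 5-week-old Col0 plants that had been grown untreated in a long-day greenhouse. The groups were the wild type (WT), the ref6-3 and ref6C plants, the elf6-3ref6C plants, called the double mutant here, and the elf6-3ref6Cjmj13G plants, called the triple mutant, each with 3 libraries. The double and the triple mutant therefore carry ref6C, and the triple mutant carries elf6-3 as well. REF6, ELF6 and JMJ13 are demethylases of lysine 27 of histone H3, the residue that the Polycomb system methylates at silent genes. The labels name the alleles without saying what each one changes in its gene or whether a replicate was a separate plant or pool, so p-values cover only how these libraries vary, and that variation may be technical.

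AP2/ERF proteins bind DNA through the AP2 domain, which received the name Integrase-type in sequence databases because its fold resembles the DNA-binding part of some integrases. The plant family holds the AP2-like factors, which direct floral organ identity and organ growth, the DREB factors, which bind the DRE element of cold and drought genes, and the ERF factors, which bind the GCC box of ethylene and defence genes. In flowers the family is known for the identity of sepals and petals, for ovule growth and for the cuticle that covers petals and anthers. The gene notes of RefSeq put 41 members into the DREB classes A-1 to A-6 and 31 into the ERF classes B-1 to B-6. The other 13 have no class in those notes, among them AP2, ANT, SMZ, SNZ, WRI1, WRI4, PLT1, PLT2 and BBM. A single coding exon was annotated in 59 of 85 members (69.4%), against 6199 of 26712 protein-coding genes of the table (23.2%). The median protein length was 244 residues in the members and 354 in all protein-coding genes. Members lay on all 5 chromosomes, 31 of them on chromosome 1 and 21 on chromosome 5, and 3 pairs were direct neighbours: DREB2C with AT2G40350, ESE1 with TDR1, and AT5G67000 with AT5G67010.

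Transcripts were tested for 52 members, and 33 had too few counts. Of those 33, 12 had at most 10 counts over all 15 libraries, among them AT5G67000 with none, and the highest total was 109, in the abscisic acid regulator ABR1. Genes that act in embryos or roots were in this group: BBM, a driver of embryo formation, had a total of 34 counts, and the root stem cell factors PLT1 and PLT2 had 20 and 55. A member could enter the test through mutant libraries alone. This held for HRE2, SNZ, DRN and AT1G12630, which had no WT library at or above the 0.348 CPM (counts scaled to a library of equal size) that the filter asked for, so for them a difference from WT was a condition of being tested.

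Total counts per library lay between 26009591 and 34140165, and the members together took 16445 to 21175 of them. The library ref6C replicate 3 stood apart, with a count in 29547 genes and in 80 members, against 25055 to 25712 genes and 69 to 73 members in the other 14 libraries; a note in the deposited table says that the authors left it out of their statistics. REF6 was at 69.4 ± 1.9 CPM in WT and at 32.9 to 36.9 CPM on average in the mutants, and ELF6 was at 61.3 ± 0.70 CPM in WT, 2.53 ± 0.14 in the double mutant and 8.67 ± 1.0 in the triple mutant (SD, n = 3). Genes that mark other parts of the flower also differed. The summed level of 7 mature pollen markers was 609 to 639 CPM in WT, 173 to 182 in ref6-3, 490 to 512 in ref6C, 136 to 141 in the double and 200 to 207 in the triple mutant. That of 12 tapetum and anther markers was 2022 to 2117 CPM in WT, 2041 to 2067 in ref6-3, 1366 to 1458 in ref6C, 1174 to 1204 in the double and 1206 to 1214 in the triple mutant. The 7 green tissue markers summed to 11577 to 12598 CPM in WT, 14502 to 15216 in ref6-3, 12403 to 12946 in ref6C, 11512 to 11680 in the double and 10240 to 10916 in the triple mutant. None of these markers was at 0 in any genotype, but some came close. The lowest mature pollen marker averaged 1.88 CPM in WT, 0.037 in ref6-3, 0.046 in ref6C, 0.025 in the double and 0.042 in the triple mutant. The 7 floral organ identity genes, which mark the labelled tissue, summed to 743 to 1015 CPM over the 15 libraries. The part of these differences in the results on the members was not tested, and in whole buds fewer cells of a type and less RNA per cell cannot be told apart.

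Sequences upstream of 3 members are shown because HRE2 had the largest difference from WT and because SHN1 and SHN3 moved together. Each is the 250 bases before the annotated gene start in RefSeq, assembly TAIR10.1, on the strand of the gene: chr2:19503703-19503952 on the minus strand, chr1:5283018-5283267 on the plus strand and chr5:8820208-8820457 on the plus strand. Capitals mark a match to the motif that REF6 binds, searched on both strands as CTCTGTTT, CTCTGTTC, CTCTGCTT and CTCTGCTC.
HRE2: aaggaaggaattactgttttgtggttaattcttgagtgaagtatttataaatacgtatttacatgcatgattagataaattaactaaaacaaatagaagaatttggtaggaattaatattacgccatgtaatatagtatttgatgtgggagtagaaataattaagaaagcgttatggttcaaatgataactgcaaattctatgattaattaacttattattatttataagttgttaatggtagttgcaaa
SHN1: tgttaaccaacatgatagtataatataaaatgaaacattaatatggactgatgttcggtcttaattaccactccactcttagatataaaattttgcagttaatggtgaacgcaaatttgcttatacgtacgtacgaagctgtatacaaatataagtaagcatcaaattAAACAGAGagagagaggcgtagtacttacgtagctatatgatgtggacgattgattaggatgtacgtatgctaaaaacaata
SHN3: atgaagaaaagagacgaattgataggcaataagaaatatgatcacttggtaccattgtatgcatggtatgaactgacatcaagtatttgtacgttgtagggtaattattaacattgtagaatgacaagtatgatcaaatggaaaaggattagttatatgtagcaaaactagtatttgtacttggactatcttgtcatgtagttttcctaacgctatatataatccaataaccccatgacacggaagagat
The SHN1 window holds AAACAGAG, the first form read on the other strand, which starts 82 bases before the gene, and the windows of HRE2 and SHN3 hold none of the 4 forms. Over all members 4 of 85 windows held the REF6 motif (4.71%), those of SHN1, DDF1, BBM and AT3G60490, against 5.77% of 32834 windows of genes in the table. The DRE core CCGAC was in 10 member windows (11.8%, against 12.2% of all) and the GCC core GCCGCC in 2 (2.35%, against 1.98%), each searched on both strands. These are matches of letters in a short window, and they say nothing of binding.

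The microRNA miR172, which restrains AP2-like factors during flowering, matches 3 members closely. It and the best matching coding sites are shown because AP2, SMZ and SNZ are described together further on. The miR172a sequence comes from chr2:11942918-11942938 on the minus strand and has its seed, bases 2 to 8, in capitals. The sites lie at chr4:17403019-17403039 on the plus strand, chr3:20373774-20373794 on the minus strand and chr2:16389066-16389086 on the minus strand (RefSeq, TAIR10.1), and capitals mark bases that do not pair with miR172a by the standard rules, with a G to U pair counted as unpaired.
miR172a: aGAAUCUUgaugaugcugcau
AP2: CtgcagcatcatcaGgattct
SMZ: TtgcagcatcatcaGgattcC
SNZ: TtgTagcatcatcaGgattcC
AP2 has 2 unpaired bases among the 21, SMZ has 3 and SNZ has 4, and no other member had a site with fewer than 5.

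As a group the members moved both ways, and their larger differences from WT were mostly seen once elf6-3 was added. A gene was called where edgeR's quasi-likelihood test, fitted to all 22411 testable genes and 15 libraries, gave a Benjamini-Hochberg adjusted p below 0.05; every adjusted p and every log2 fold change ± SE below comes from that fit. In ref6-3, 11 of the 52 tested members were called higher and 6 lower than in WT (all genes 16.2% and 18.5%). In ref6C 8 were higher and 16 lower (all genes 18.4% and 20.4%). In the double mutant 20 were higher and 16 lower (33.7% and 34.8%), and in the triple mutant 16 were higher and 15 lower (32.0% and 34.4%). Some difference among the 5 genotypes was called for 42 of the 52 members, or 80.8%, against 82.0% of all genes, so the share of members with any difference lay close to that of all genes. The 8 members called higher in ref6C fell to 5 without WT replicate 2, WT replicate 3 or ref6C replicate 3, and to 4 without ref6C replicate 2.

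Differences of at least 2-fold were fewer. In ref6-3, 2 members were at least 2-fold higher (HRE2 and AT5G61890) and 2 lower (AT2G22200 and ERF105), against 0.678% and 4.99% of all genes. In ref6C, 2 were at least 2-fold higher (AT5G61890 and AT1G12630) and 4 lower (AT2G22200, ERF105, DEWAX and DREB2C), against 1.20% and 3.34%. The double mutant had 9 members at least 2-fold higher, or 17.3% of those tested, against 3.76% of all genes, and 7 lower, or 13.5% against 9.93%. In the triple mutant 8 members (15.4%) were at least 2-fold higher, against 3.00%, and 5 (9.62%) were lower, against 10.1%. The median log2 fold change of the 52 tested members was 0.08 in ref6-3, 0.04 in ref6C, 0.14 in the double and 0.10 in the triple mutant, while that of all genes was 0.00, 0.00, 0.00 and -0.01. Of the 9 members higher in the double mutant, HRE2, SNZ and DRN entered the test through mutant libraries alone. They were also among the 8 in the triple mutant. HRE2 in ref6-3 and AT1G12630 in ref6C entered the test through mutant libraries alone as well. The shares of members at least 2-fold higher are therefore a description in every mutant. Without ref6C replicate 3 the 2 members at least 2-fold higher in ref6C became 1, AT5G61890; AT1G12630 then had a log2 fold change of 1.23 and an adjusted p of 0.15, after 1.71 ± 0.58 (adjusted p = 0.02) with all libraries, and it lost its call without WT replicate 2, WT replicate 3 or ref6C replicate 2 as well. Without WT replicate 2 no member was called at least 2-fold higher in ref6C, by edgeR.

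**Figure D1:**
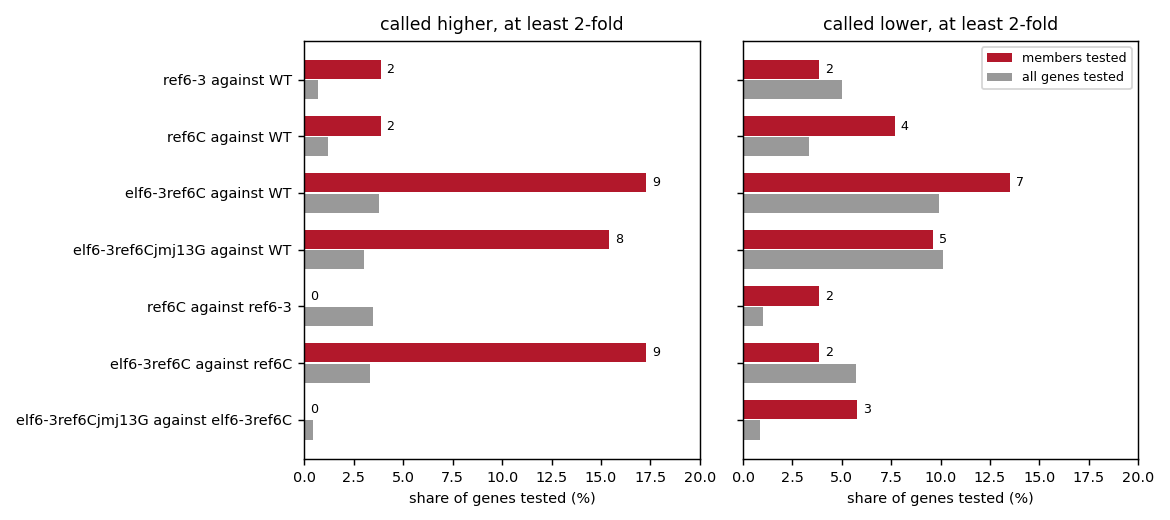
Share of genes called at least 2-fold higher (left) or lower (right) in each of 7 comparisons, in percent of genes tested; red bars are the 52 tested members, with the number of members at the end, and grey bars are all 22411 tested genes. The red bar reaches 17.3% for members higher in elf6-3ref6C against WT, where the grey bar is at 3.76%. That red bar includes HRE2, SNZ and DRN, which entered the test through mutant libraries alone, so the 2 bars are not read against each other. HRE2 is also in the bar of ref6-3 against WT and AT1G12630 in that of ref6C against WT, and both entered the same way.

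**Figure D2:**
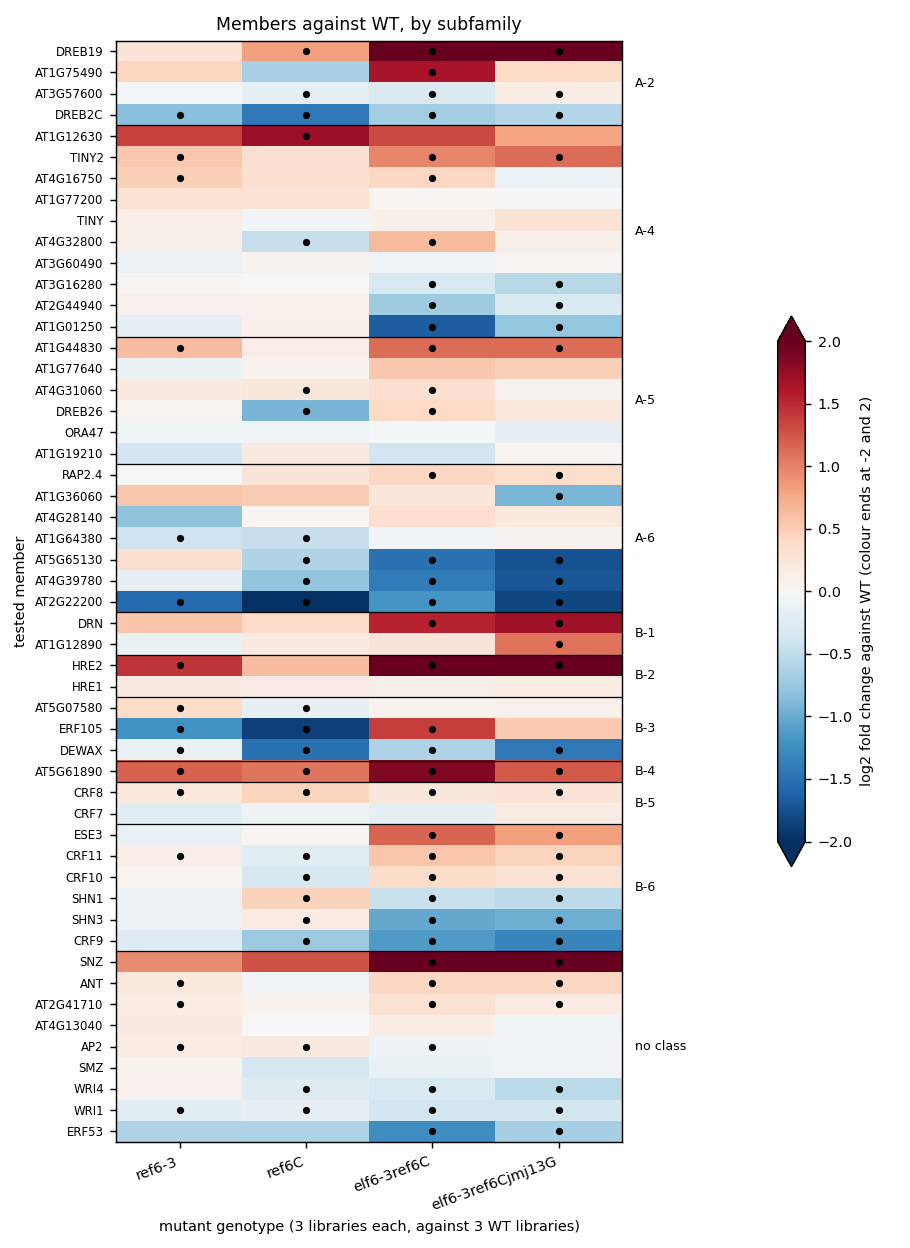
Log2 fold change against WT of the 52 tested members in the 4 mutants, ordered by class, with colours that end at -2 and 2 and a dot where the gene was called. DREB19 and HRE2 are red with a dot in both right-hand columns, and the A-6 members AT2G22200, AT4G39780 and AT5G65130 are blue with a dot there.

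Per unit of length, the AP2-like and cuticle factors stood highest in these buds. Averaged over the 15 libraries, the deposited FPKM values were 69.3 ± 9.4 for ANT, 60.05 ± 17 for SHN1, 46.7 ± 4.1 for AP2 and 33.02 ± 5.4 for CRF10 (SD, n = 15). The next were 22.9 ± 2.5 for CRF8, 22.3 ± 4.4 for CRF11, 21.8 ± 1.5 for AT2G41710 and 20.8 ± 2.8 for AT5G07580. The SD spans all genotypes, and the order changes with genotype. In WT, SHN1 was at 63.8 ± 7.4 FPKM and ANT at 60.4 ± 0.90, which overlap within 1 SD (n = 3). In ref6C, SHN1 was at 87.4 ± 5.8 and ANT at 57.7 ± 0.71 FPKM, and in the double mutant SHN1 was at 45.97 ± 1.5 and ANT at 78.95 ± 0.60 FPKM. CRF8, CRF11, AT2G41710 and AT5G07580 lay between 19.5 and 20.0 FPKM in WT, with SDs of 0.46 to 1.2, while in the double mutant CRF11 was at 27.98 ± 0.89 and AT5G07580 at 20.3 ± 0.66 FPKM. All members together made up 598 to 608 CPM in WT, 637 to 645 in ref6-3, 579 to 606 in ref6C, 651 to 659 in the double mutant and 629 to 636 in the triple mutant.

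ANT, which promotes the growth of floral organs and ovules, rose when ELF6 was also mutated. ANT (chr4:17739514-17742407 on TAIR10.1, plus strand) was at 122, 125 and 125 CPM in WT, 142, 144 and 146 in ref6-3 and 120.2, 120.5 and 118 in ref6C. The level was 167, 165 and 168 CPM in the double mutant and 163, 167 and 165 CPM in the triple mutant. The 6 libraries of the double and triple mutants lay above all others, ref6-3 stood between them and WT, and ref6C lay just below WT. The log2 fold change against WT was 0.42 ± 0.03 (adjusted p = 3.0e-14) in the double mutant, 0.41 ± 0.03 (adjusted p = 5.9e-14) in the triple mutant and 0.21 ± 0.03 (adjusted p = 1.4e-07) in ref6-3, while ref6C was not called (-0.06 ± 0.03, adjusted p = 0.085). ANT relatives listed under other descriptions included AIL6, which acts with ANT in flower growth and was at 16.9 ± 1.3 CPM in WT and 21.7 ± 1.0 in the double mutant (0.35 ± 0.06, adjusted p = 1.2e-05), and AIL5, at 15.8 ± 0.16 and 18.5 ± 0.44 CPM (0.22 ± 0.05, adjusted p = 7.5e-04). AIL7 was at 5.42 ± 0.69 CPM in WT and 7.27 ± 0.37 in the double mutant (0.42 ± 0.09, adjusted p = 1.6e-04). Its level in the triple mutant was 7.49 ± 0.22 CPM (0.46 ± 0.09, adjusted p = 4.6e-05). In the triple mutant AIL6 was higher than WT (0.39 ± 0.06, adjusted p = 2.3e-06), while AIL5 was not called against WT (0.05 ± 0.06, adjusted p = 0.46) and was lower than in the double mutant (-0.18 ± 0.05, adjusted p = 0.022).

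AP2, the A-class floral organ identity gene that gives sepals and petals their identity, rose in ref6-3 and ref6C and fell in the double mutant. AP2 (chr4:17400610-17403469, plus strand) was at 70.4, 73.3 and 70.3 CPM in WT, 81.03, 77.8 and 77.7 in ref6-3 and 80.3, 83.5 and 79.8 in ref6C. Levels in the double mutant were 65.7, 67.7 and 66.04 CPM, and in the triple mutant 68.8, 69.3 and 67.6 CPM. Each ref6-3 and ref6C library lay above every WT library, and each double mutant library lay below every WT library. The changes were small: 0.14 ± 0.03 (adjusted p = 4.6e-04) in ref6-3, 0.19 ± 0.03 (adjusted p = 1.4e-05) in ref6C and -0.10 ± 0.03 (adjusted p = 0.0046) in the double mutant, with no call in the triple mutant (-0.06 ± 0.03, adjusted p = 0.094). The double mutant against ref6C was at -0.29 ± 0.03 (adjusted p = 4.7e-09).

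SNZ and SMZ, AP2-like repressors of flowering that carry the miR172 sites shown above, were rare in buds. SNZ (chr2:16388691-16391176, minus strand) had the following counts in the 3 libraries of each genotype: 0, 2 and 3 for WT, 2, 3 and 4 for ref6-3, 5, 5 and 2 for ref6C, 12, 12 and 15 for the double mutant and 12, 17 and 12 for the triple mutant. Every library of the double and triple mutants had more SNZ counts than any library of the other 3 genotypes, whose counts were 0 to 5. The fitted log2 fold change was 2.97 ± 0.54 (adjusted p = 2.3e-05) in the double and 2.97 ± 0.54 (adjusted p = 2.3e-05) in the triple mutant, values that depend on the few WT counts, and 1.70 ± 0.45 (adjusted p = 0.0019) for the double mutant against ref6C. SMZ was at 2.39, 2.37 and 2.72 CPM in WT, 2.395, 2.65 and 2.83 in ref6-3 and 2.21, 1.86 and 1.74 in ref6C. Double mutant values were 2.03, 2.64 and 2.13 CPM and triple mutant values 2.52, 2.35 and 2.22 CPM. No mutant was called against WT; its lower level in ref6C than in ref6-3 (-0.44 ± 0.15, adjusted p = 0.021) was lost without ref6-3 replicate 2 or 3 and without ref6C replicate 2 or 3 (adjusted p = 0.074 without the last). SMZ overlaps AT3G54980 on the other strand, which was at 20.4 ± 1.0 CPM in WT and 24.8 ± 0.56 in the double mutant.

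DRN, also called ESR1, promotes shoot formation and the start of floral organs. It was at 0.169, 0.117 and 0.109 CPM in WT, 0.187, 0.138 and 0.267 in ref6-3 and 0.102, 0.304 and 0.109 in ref6C. The double mutant libraries had 0.273, 0.595 and 0.309 CPM and the triple mutant libraries 0.393, 0.514 and 0.406 CPM. The libraries of the double and triple mutants lay above all WT libraries. Against WT the log2 fold change was 1.54 ± 0.47 (adjusted p = 0.0055) in the double and 1.69 ± 0.46 (adjusted p = 0.0019) in the triple mutant; the first call was lost without double mutant replicate 2. Other meristem factors were below the testing limit: LEP, PUCHI and PLT2 had 34, 44 and 55 counts over all 15 libraries, of which PUCHI had 1, 2 and 2 for WT and 6, 6 and 7 for the triple mutant.

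WRI1 and WRI4, AP2-like activators of fatty acid synthesis that feed oil and floral cutin, were lower in most mutants. WRI4 was at 20.6, 18.4 and 19.5 CPM in WT, 20.6, 20.8 and 20.96 in ref6-3 and 15.02, 17.03 and 17.3 in ref6C. The level was 13.6, 17.5 and 16.4 CPM in the double mutant and 13.2, 13.4 and 13.4 CPM in the triple mutant. Every triple mutant library lay below every library of the other genotypes. Its log2 fold change was -0.25 ± 0.07 (adjusted p = 0.0039) in ref6C, -0.30 ± 0.07 (adjusted p = 2.9e-04) in the double and -0.55 ± 0.07 (adjusted p = 6.5e-08) in the triple mutant. WRI1 was at 21.7 ± 1.7 CPM in WT (SD, n = 3) and fell to 16.6 ± 0.19 in the double mutant (-0.39 ± 0.06, adjusted p = 5.9e-06) and 16.8 ± 1.3 in the triple mutant (-0.37 ± 0.06, adjusted p = 9.2e-06). WRI4 overlaps AT1G79690 on the other strand, and no source used here says if counting was strand-specific. The 12 tapetum and anther markers were also lower in ref6C and in the double and triple mutants, and their part in the WRI levels was not tested. AT2G41710, which has no class, rose from 31.7 ± 0.94 CPM in WT to 38.99 ± 1.4 in the double mutant (0.30 ± 0.04, adjusted p = 2.0e-07).

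The cuticle regulators SHN1 and SHN3 moved together, up in ref6C and down once elf6-3 was added. SHN1, also called WIN1, and SHN3 activate the synthesis of cutin and wax in the floral epidermis. SHN1 (chr1:5283268-5284736, plus strand) was at 49.8, 53.4 and 41.8 CPM in WT, 45.7, 44.6 and 44.2 in ref6-3 and 61.6, 69.4 and 68.95 in ref6C. Levels in the double mutant were 34.3, 36.05 and 36.6 CPM, and in the triple mutant 32.9, 32.6 and 35.8 CPM. All ref6C libraries were above, and all double and triple mutant libraries below, every WT library. On the log2 scale the change from WT was 0.46 ± 0.06 (adjusted p = 2.0e-07) in ref6C, -0.44 ± 0.06 (adjusted p = 4.3e-07) in the double and -0.52 ± 0.06 (adjusted p = 2.7e-08) in the triple mutant, and -0.90 ± 0.06 (adjusted p = 3.5e-13) for the double mutant against ref6C.

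SHN3 (chr5:8820458-8822062, plus strand) was at 15.4, 14.97 and 15.98 CPM in WT, 15.3, 13.6 and 13.7 in ref6-3 and 16.6, 18.1 and 17.5 in ref6C. Double mutant values were 7.38, 7.58 and 7.72 CPM and triple mutant values 7.17, 8.11 and 8.31 CPM. Its double and triple mutant libraries reached at most 8.31 CPM, and no other library was below 13.6 CPM. Fitted changes from WT were, in log2 units, -1.03 ± 0.07 (adjusted p = 2.4e-13) in the double and -0.97 ± 0.07 (adjusted p = 5.9e-13) in the triple mutant, and -1.20 ± 0.07 (adjusted p = 1.0e-14) for the double mutant against ref6C. The rise in ref6C (0.17 ± 0.06, adjusted p = 0.023) was lost without WT replicate 2, ref6C replicate 2 or ref6C replicate 3 (adjusted p = 0.058 without the last). SHN2, the remaining member of this trio, was below the testing limit, with counts of 10, 8 and 8 for WT, 9, 9 and 8 for ref6-3, 11, 3 and 4 for ref6C, 1, 3 and 4 for the double mutant and 2, 3 and 2 for the triple mutant. Its double and triple mutant libraries had 1 to 4 counts each and the WT libraries 8 to 10.

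DEWAX, a repressor of wax genes in the dark, followed another course. DEWAX (chr5:24764256-24765511, minus strand) was at 21.1, 19.6 and 20.05 CPM in WT, 18.2, 18.96 and 17.6 in ref6-3 and 7.26, 7.43 and 6.92 in ref6C. The double mutant libraries had 12.7, 13.6 and 13.4 CPM and the triple mutant libraries 7.63, 7.45 and 7.37 CPM. The ref6C and triple mutant libraries were lowest, the double mutant stood between them and ref6-3, and no group overlapped WT. The log2 fold change was -1.49 ± 0.06 (adjusted p = 2.3e-17) in ref6C, -0.61 ± 0.05 (adjusted p = 5.7e-11) in the double and -1.44 ± 0.06 (adjusted p = 5.2e-18) in the triple mutant. The double mutant was higher than ref6C (0.88 ± 0.06, adjusted p = 2.3e-12) and the triple mutant lower than the double (-0.82 ± 0.06, adjusted p = 7.6e-11), so DEWAX rose with elf6-3 and fell again with jmj13G. Its small drop in ref6-3 (-0.15 ± 0.05, adjusted p = 0.021) was lost without WT replicate 1, ref6-3 replicate 1 or ref6-3 replicate 3.

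The enzymes and transporters of cutin were read beside these factors. Of 9 listed genes, 6 were called higher and 1 lower in ref6C, none higher and 9 lower in the double mutant, and none higher and 8 lower in the triple mutant, with median log2 fold changes of 0.10, -0.20 and -0.14. The background shares for all genes are those given above, and every median over all genes was between -0.01 and 0.00. The acyltransferase DCR was at 661 ± 32 CPM in WT, 747 ± 14 in ref6C and 535 ± 17 in the double mutant (-0.48 ± 0.03, adjusted p = 2.0e-13 for the double mutant against ref6C). The fatty acid activating enzyme LACS2 was at 235 ± 2.4, 260.0 ± 4.2 and 207 ± 3.6 CPM (-0.33 ± 0.02, adjusted p = 3.5e-12). ABCG11, an exporter of cuticle lipids and the gene that was lower in ref6C, was at 328 ± 13, 307 ± 2.0 and 252 ± 3.9 CPM (-0.38 ± 0.03, adjusted p = 7.4e-13 for the double mutant against WT). The 7 floral organ identity genes had a summed level of 986 to 994 CPM in WT, 915 to 936 in ref6-3, 1003 to 1015 in ref6C, 827 to 849 in the double and 743 to 755 in the triple mutant; their part in the SHN and cutin results was not tested.

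**Figure D3:**
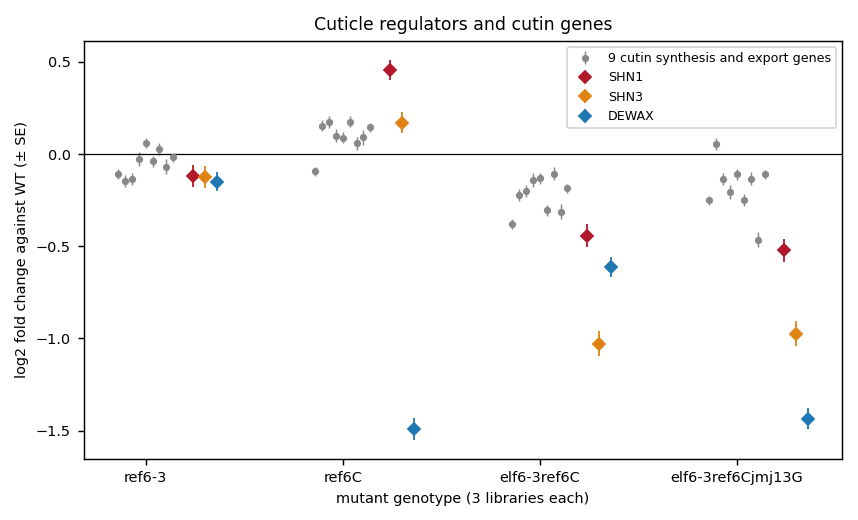
Log2 fold change against WT ± SE of SHN1, SHN3 and DEWAX (diamonds) and of 9 cutin synthesis and export genes (grey points) in the 4 mutants. SHN1 and SHN3 lie above 0 in ref6C (0.46 and 0.17) and below 0 in elf6-3ref6C (-0.44 and -1.03), and the grey points lie on the same side of 0, except ABCG11 in ref6C.

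The cytokinin response factors, ERF proteins named for their induction by cytokinin, did not move as 1 group. CRF10 was at 53.6, 55.9 and 53.9 CPM in WT, 56.6, 55.7 and 57.6 in ref6-3 and 40.7, 47.3 and 42.7 in ref6C. The level was 69.3, 70.7 and 71.4 CPM in the double mutant and 67.9, 65.1 and 66.2 CPM in the triple mutant. Its ref6C libraries were below and its double and triple mutant libraries above every WT library. Against WT the log2 fold change was -0.32 ± 0.04 (adjusted p = 2.7e-07) in ref6C, 0.37 ± 0.04 (adjusted p = 1.7e-09) in the double and 0.29 ± 0.04 (adjusted p = 2.0e-07) in the triple mutant. CRF11 did the same, from 33.2 ± 1.8 CPM in WT to 28.4 ± 0.65 in ref6C (-0.22 ± 0.04, adjusted p = 2.3e-04), 48.9 ± 1.5 in the double (0.56 ± 0.04, adjusted p = 2.2e-12) and 45.1 ± 1.3 in the triple mutant (0.44 ± 0.04, adjusted p = 2.8e-10).

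CRF9 was lower than WT in ref6C and in the double and triple mutants. It was at 2.16, 2.54 and 2.397 CPM in WT, 1.91, 2.41 and 1.603 in ref6-3 and 1.29, 1.59 and 1.41 in ref6C. Levels in the double mutant were 1.21, 1.04 and 0.988 CPM, and in the triple mutant 0.982, 1.06 and 0.812 CPM. Its ref6C, double mutant and triple mutant libraries were all below every WT library. On the log2 scale the change from WT was -0.73 ± 0.17 (adjusted p = 9.5e-04) in ref6C, -1.14 ± 0.18 (adjusted p = 2.2e-06) in the double and -1.32 ± 0.18 (adjusted p = 2.8e-07) in the triple mutant, and the double mutant was not called against ref6C (-0.41 ± 0.19, adjusted p = 0.065). It overlaps AT1G49130 on the other strand, which was at 10.6 ± 0.75 CPM in WT, 7.61 ± 0.67 in ref6C, 11.4 ± 0.29 in the double and 7.29 ± 0.23 in the triple mutant. CRF8 was a little higher than WT in all 4 mutants, by 0.22, 0.45, 0.22 and 0.26 log2 units (adjusted p 0.0068, 7.6e-07, 0.0021 and 5.5e-04), and CRF7 was called in none of them. Between the double mutant and ref6C, CRF8 fell (-0.22 ± 0.06, adjusted p = 0.0018). Of 7 factors of this list under other descriptions, 3 were higher and 3 lower in the double mutant (all genes 33.7% and 34.8%). Among them CRF6 rose most clearly, from 11.6 ± 0.16 to 35.2 ± 1.5 CPM (1.60 ± 0.05, adjusted p = 8.3e-20).

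**Figure D4:**
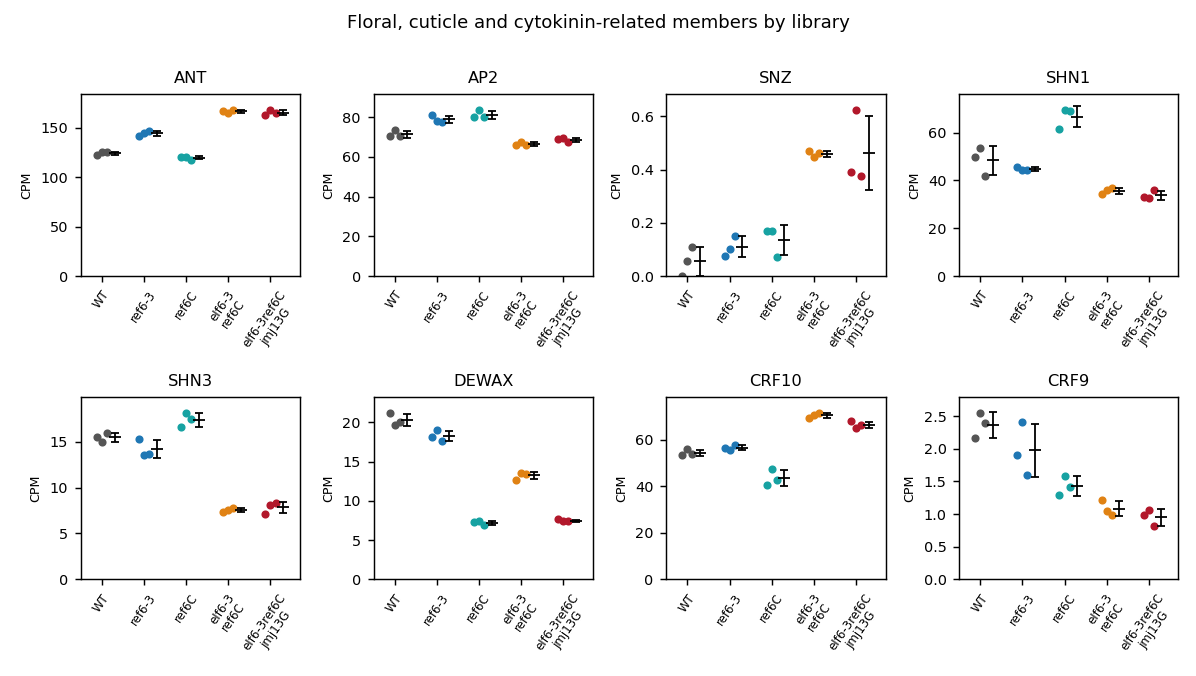
CPM of 8 members in each of the 15 libraries (points, 3 per genotype), with the mean ± SD beside them; every axis starts at 0. ANT and CRF10 are highest in the double and triple mutants, SHN1 and SHN3 are lowest there, and DEWAX is lowest in ref6C and the triple mutant.

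Among the A-2 DREB factors, which carry drought and heat responses, DREB19 rose 20.3-fold in the double mutant and DREB2C was lower in every mutant. DREB19 (chr2:16067396-16068615, minus strand) was at 0.674, 0.292 and 0.363 CPM in WT, 0.449, 0.517 and 0.611 in ref6-3 and 0.647, 0.845 and 0.833 in ref6C. Double mutant values were 8.82, 8.99 and 9.08 CPM and triple mutant values 9.23, 7.81 and 9.96 CPM. The 6 double and triple mutant libraries were at 7.81 CPM or above, and no other library exceeded 0.845 CPM. This was 20.3-fold the WT level in the double mutant (4.34 ± 0.17, adjusted p = 2.3e-18) and 20.4-fold in the triple mutant (4.35 ± 0.17, adjusted p = 2.4e-18), and the triple mutant was not called against the double (0.01 ± 0.10, adjusted p = 0.97). DREB19 overlaps AT2G38330 on the other strand, which was at 38.6 ± 0.67 CPM in WT and 33.1 ± 1.0 in the double mutant. The slight rise in ref6C (0.82 ± 0.27, adjusted p = 0.019) was lost without WT replicate 2 or 3, without ref6C replicate 2 or 3 (adjusted p = 0.063 without the last) and in a fit of these 2 groups alone.

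DREB2C, which is induced by heat and activates a heat shock factor, was at 4.38, 4.21 and 4.39 CPM in WT, 2.02, 2.895 and 2.33 in ref6-3 and 1.46, 1.66 and 1.702 in ref6C. The double mutant libraries had 2.89, 2.79 and 2.35 CPM and the triple mutant libraries 3.404, 2.68 and 2.59 CPM. All mutant libraries lay below all WT libraries, and ref6C was lowest. Fitted changes from WT were, in log2 units, -0.83 ± 0.13 (adjusted p = 1.6e-05) in ref6-3, -1.43 ± 0.14 (adjusted p = 6.3e-09) in ref6C, -0.70 ± 0.13 (adjusted p = 3.8e-05) in the double and -0.58 ± 0.13 (adjusted p = 2.9e-04) in the triple mutant. Its direct neighbour AT2G40350, also A-2, had 100 counts over all libraries and was not tested. AT1G75490 was at 0.405, 0.409 and 0.145 CPM in WT, 0.674, 0.241 and 0.4200 in ref6-3 and 0.204, 0.203 and 0.217 in ref6C. The level was 1.09, 1.003 and 1.02 CPM in the double mutant and 0.425, 0.404 and 0.468 CPM in the triple mutant. Those of the double mutant stood above the rest. It rose in the double mutant (1.65 ± 0.31, adjusted p = 3.4e-05) and was lower in the triple than in the double mutant (-1.25 ± 0.29, adjusted p = 0.0024). AT3G57600 was slightly lower in the double mutant (-0.28 ± 0.07, adjusted p = 5.1e-04) and higher again in the triple (0.43 ± 0.07, adjusted p = 1.5e-05).

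The A-4 class, to which TINY belongs, held changes in both directions. TINY2, which like TINY binds DRE elements and restrains growth when overexpressed, was at 1.45, 1.78 and 1.23 CPM in WT, 2.28, 2.03 and 2.29 in ref6-3 and 1.98, 1.62 and 2.03 in ref6C. Levels in the double mutant were 3.04, 3.196 and 2.69 CPM, and in the triple mutant 3.31, 3.19 and 3.31 CPM. Its double and triple mutant libraries were all above every library of the other groups. The log2 fold change was 0.55 ± 0.16 (adjusted p = 0.0072) in ref6-3, 0.98 ± 0.15 (adjusted p = 1.6e-06) in the double and 1.12 ± 0.14 (adjusted p = 1.3e-07) in the triple mutant; TINY itself was at 0.617 ± 0.091 CPM in WT and called in no comparison.

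AT1G01250, with no symbol in the annotation, fell most in this class and was at 10.6, 10.4 and 9.73 CPM in WT, 8.91, 8.75 and 9.39 in ref6-3 and 11.4, 10.9 and 10.7 in ref6C. Double mutant values were 3.903, 2.97 and 3.03 CPM and triple mutant values 5.63, 5.54 and 6.68 CPM. The double mutant was lowest, the triple mutant stood between it and the remaining 3 groups, and neither overlapped them. Against WT the log2 fold change was -1.64 ± 0.10 (adjusted p = 1.4e-14) in the double and -0.78 ± 0.08 (adjusted p = 5.3e-09) in the triple mutant, with a rise from double to triple of 0.86 ± 0.10 (adjusted p = 4.3e-07). AT2G44940 had the same order, at 18.5 ± 0.46 CPM in WT, 11.4 ± 0.65 in the double (-0.71 ± 0.06, adjusted p = 4.6e-11) and 14.9 ± 0.67 in the triple mutant (0.40 ± 0.06, adjusted p = 2.2e-05 against the double). AT4G32800 was highest in the double mutant, at 4.79 ± 0.39 CPM in WT, 3.47 ± 0.33 in ref6C (-0.46 ± 0.11, adjusted p = 0.0013), 7.47 ± 0.37 in the double mutant (0.64 ± 0.10, adjusted p = 1.8e-06) and 5.17 ± 0.25 in the triple mutant (-0.53 ± 0.10, adjusted p = 1.6e-04 against the double), which was not called against WT (0.11 ± 0.10, adjusted p = 0.35). Of the 10 tested A-4 members, 3 were higher and 3 lower in the double mutant, close to the 33.7% and 34.8% of all genes. The other 5 of the 15 in the class were not tested.

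In the A-5 class, DREB26 was the clearest case of a member lowered in ref6C and raised with elf6-3. It was at 4.45, 4.18 and 4.14 CPM in WT, 3.59, 5.205 and 4.47 in ref6-3 and 2.15, 2.196 and 2.35 in ref6C. The double mutant libraries had 5.23, 5.83 and 5.804 CPM and the triple mutant libraries 5.204, 4.99 and 4.53 CPM. The highest ref6C library was at 2.35 CPM and the lowest of all others at 3.59 CPM. On the log2 scale the change from WT was -0.93 ± 0.13 (adjusted p = 1.2e-06) in ref6C, 0.40 ± 0.11 (adjusted p = 0.002) in the double mutant and 1.34 ± 0.12 (adjusted p = 3.7e-10) between the double mutant and ref6C. AT1G44830 rose from 1.08 ± 0.12 CPM in WT to 2.36 ± 0.23 in the double (1.11 ± 0.17, adjusted p = 1.4e-06) and 2.36 ± 0.12 in the triple mutant (1.12 ± 0.17, adjusted p = 1.2e-06). ORA47, an activator of jasmonate synthesis genes, was at 1.84 ± 0.030 CPM in WT and called in no comparison.

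The A-6 class, DREB factors related to RAP2.4, had more members lower than higher in each mutant, in small numbers. Of its 8 members 7 were tested, and ref6-3 had none higher and 2 lower, ref6C none and 4, the double mutant 1 and 3, and the triple mutant 1 and 4. The shares of all genes called lower were 18.5%, 20.4%, 34.8% and 34.4%. The median log2 fold change of the 7 was -0.16, -0.47, -0.08 and -0.92 in the same order, while every median over all genes lay between -0.01 and 0.00. Of the 4 in the triple mutant, 1, AT1G36060, lost its call without WT replicate 1 or triple mutant replicate 2. AT4G39780 was at 4.69, 4.62 and 4.903 CPM in WT, 4.12, 4.102 and 4.47 in ref6-3 and 2.76, 2.87 and 2.61 in ref6C. The level was 1.83, 1.67 and 1.88 CPM in the double mutant and 1.47, 1.100 and 1.72 CPM in the triple mutant. The levels fell from WT to ref6C to the double mutant without overlap, and the double and triple mutants overlapped. Fitted changes from WT were, in log2 units, -0.78 ± 0.12 (adjusted p = 4.4e-06) in ref6C, -1.39 ± 0.13 (adjusted p = 1.8e-10) in the double and -1.71 ± 0.13 (adjusted p = 5.5e-12) in the triple mutant. AT2G22200 was at 1.01, 0.731 and 0.763 CPM in WT, 0.262, 0.207 and 0.382 in ref6-3 and 0.102, 0.169 and 0.362 in ref6C. Levels in the double mutant were 0.195, 0.5203 and 0.3705 CPM, and in the triple mutant 0.164, 0.257 and 0.281 CPM. Every mutant library lay below every WT library. Its log2 fold change was -1.55 ± 0.35 (adjusted p = 0.001) in ref6-3, -1.98 ± 0.37 (adjusted p = 1.1e-04) in ref6C, -1.18 ± 0.33 (adjusted p = 0.0027) in the double and -1.81 ± 0.36 (adjusted p = 7.7e-05) in the triple mutant. AT5G65130 was lower in the double (-1.48 ± 0.27, adjusted p = 1.9e-05) and triple mutant (-1.74 ± 0.27, adjusted p = 2.9e-06). It was also called lower in ref6C, at 0.763 ± 0.10 CPM against 1.16 ± 0.081 in WT. AT1G64380 was called lower in ref6-3, by a log2 fold change of -0.41, and in ref6C (-0.47 ± 0.12, adjusted p = 0.0029), and not in the double or triple mutant. The member with the alias RAP2.4, AT1G22190, rose a little, from 3.59 ± 0.23 CPM in WT to 4.83 ± 0.36 in the double mutant (0.42 ± 0.11, adjusted p = 0.0013).

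HRE2, a group VII ethylene response factor that acts in the response to low oxygen, had the largest difference of all members. HRE2 (chr2:19502776-19503702, minus strand) was at 0.169, 0.146 and 0.109 CPM in WT, 0.412, 0.448 and 0.305 in ref6-3 and 0.204, 0.2703 and 0.181 in ref6C. Double mutant values were 4.84, 4.61 and 4.29 CPM and triple mutant values 1.87, 1.65 and 1.72 CPM. Double mutant libraries were highest, the triple mutant libraries stood between 1.65 and 1.87 CPM, and no other library exceeded 0.448 CPM. The level in the double mutant was 31.2-fold that of WT (4.96 ± 0.22, adjusted p = 2.5e-17) and in the triple mutant 11.95-fold (3.58 ± 0.25, adjusted p = 1.3e-12); the triple mutant was lower than the double (-1.39 ± 0.14, adjusted p = 9.9e-09). In ref6-3 HRE2 was also higher than in WT (1.43 ± 0.35, adjusted p = 0.0055), with counts of 5, 5 and 3 for WT and 11, 13 and 8 for ref6-3, and ref6C was not called (0.61 ± 0.40, adjusted p = 0.35). The other hypoxia factor with this description, HRE1, was at 1.47 ± 0.16 CPM in WT and 1.58 ± 0.25 in the double mutant and was called in no comparison; it overlaps AT1G72370 on the other strand. Of 3 group VII factors under other descriptions, 1 was higher and 1 lower in the double mutant (all genes 33.7% and 34.8%), neither by 2-fold or more.

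In class B-3, ERF105, a factor of cold and defence responses, fell in ref6-3 and ref6C and rose in the double mutant. It was at 0.641, 1.05 and 0.581 CPM in WT, 0.299, 0.3102 and 0.382 in ref6-3 and 0.136, 0.169 and 0.326 in ref6C. The double mutant libraries had 2.26, 2.01 and 1.82 CPM and the triple mutant libraries 1.08, 1.25 and 1.03 CPM. No ref6-3 or ref6C library reached the lowest WT library, and all double mutant libraries were above the highest. The ref6C libraries all lay below the 0.348 CPM of the filter, which ERF105 passed through other genotypes. The log2 fold change was -1.22 ± 0.31 (adjusted p = 0.0027) in ref6-3, -1.87 ± 0.34 (adjusted p = 6.2e-05) in ref6C, 1.38 ± 0.21 (adjusted p = 2.6e-06) in the double mutant and 3.25 ± 0.28 (adjusted p = 1.1e-10) between the double mutant and ref6C. It overlaps AT5G51180 on the other strand, which stayed between 34.7 and 37.7 CPM on average. AT5G07580 was highest in ref6-3, at 25.96 ± 1.1 CPM against 20.2 ± 1.2 in WT (0.37 ± 0.05, adjusted p = 1.4e-06) and 17.9 ± 0.24 in ref6C (-0.54 ± 0.05, adjusted p = 3.1e-09 for ref6C against ref6-3).

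AT5G61890, the 1 tested member of class B-4, was higher than WT in all 4 mutants. It was at 0.371, 0.439 and 0.763 CPM in WT, 1.01, 1.24 and 1.26 in ref6-3 and 1.33, 0.879 and 1.05 in ref6C. The level was 1.72, 1.598 and 2.22 CPM in the double mutant and 1.54, 1.03 and 1.06 CPM in the triple mutant. Every mutant library lay above every WT library. Against WT the log2 fold change was 1.18 ± 0.27 (adjusted p = 0.0012) in ref6-3, 1.07 ± 0.27 (adjusted p = 0.0027) in ref6C, 1.84 ± 0.25 (adjusted p = 2.8e-07) in the double and 1.23 ± 0.27 (adjusted p = 2.3e-04) in the triple mutant. ESE3, a class B-6 factor induced by ethylene and salt, was at 1.802 ± 0.66 CPM in WT, 4.03 ± 0.15 in the double (1.17 ± 0.16, adjusted p = 4.4e-07) and 3.17 ± 0.13 in the triple mutant (0.81 ± 0.17, adjusted p = 1.1e-04). AT1G12890, in class B-1, was higher in the triple mutant alone among the 4 comparisons with WT, at 3.005 ± 0.15 CPM against 1.42 ± 0.15 (1.09 ± 0.15, adjusted p = 6.3e-07), and it was higher there than in the double mutant (0.83 ± 0.15, adjusted p = 1.7e-04). Members of class B-4 below the testing limit include ERF115, a factor of stem cell renewal, with 0, 0 and 0 for WT, 1, 4 and 7 for the double mutant and 4, 2 and 1 for the triple mutant as counts.

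**Figure D5:**
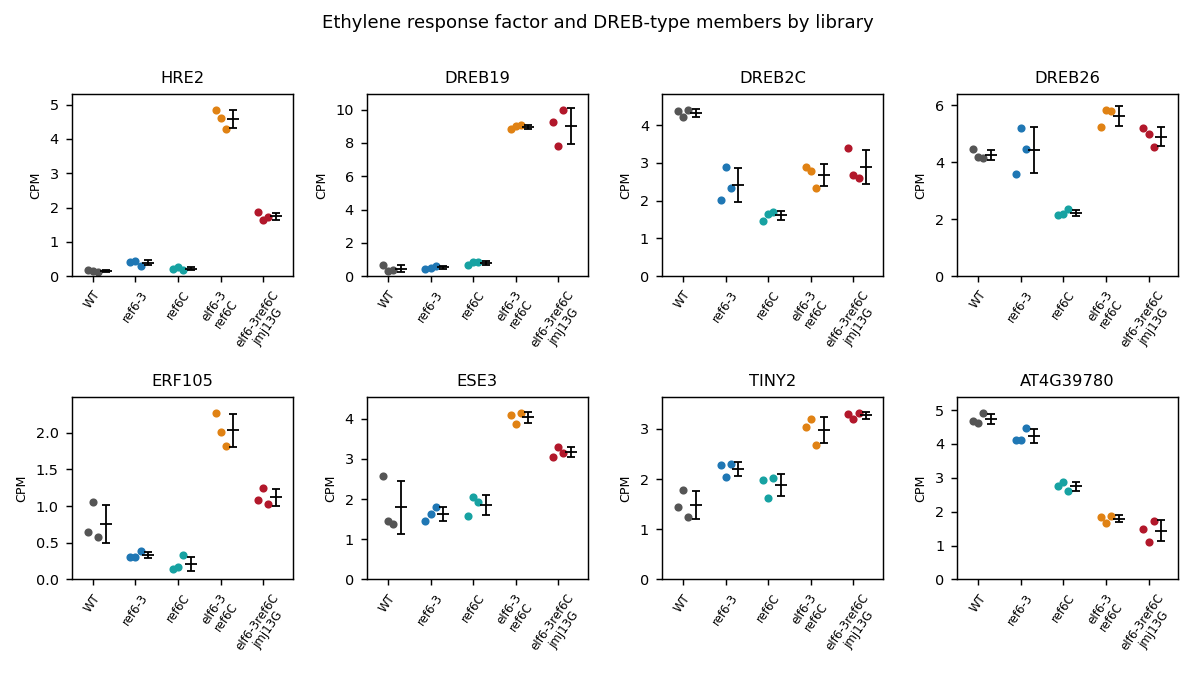
CPM of 8 ERF and DREB-type members in each of the 15 libraries (points, 3 per genotype), with the mean ± SD beside them; every axis starts at 0. HRE2 and DREB19 are near 0 in WT, ref6-3 and ref6C and high in the double mutant, where HRE2 reaches 4.84 CPM and DREB19 9.08 CPM.

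The ref6-3 and ref6C plants were set against each other to ask whether the members' levels differ between these REF6 alleles. In ref6C, 4 members were higher and 15 lower than in ref6-3, where 17.2% and 16.8% of all genes were called. At 2-fold or more, none was higher, by edgeR or DESeq2, and 2 were lower (DEWAX and AT1G75490), against 3.49% and 0.991%; edgeR gave 24 members an unadjusted p below 0.05. The call of AT1G75490 was lost when any 1 of 11 libraries was left out, each ref6C library among them, and with DESeq2; that of DREB2C was lost without ref6-3 replicate 2. DEWAX was -1.34 ± 0.06 (adjusted p = 3.2e-16), DREB26 -0.99 ± 0.13 (adjusted p = 5.8e-07), AT4G39780 -0.62 ± 0.12 (adjusted p = 1.7e-04) and DREB2C -0.59 ± 0.16 (adjusted p = 0.0049) on the log2 scale. Higher in ref6C were SHN1 (0.57 ± 0.06, adjusted p = 6.1e-09), SHN3 (0.29 ± 0.06, adjusted p = 3.5e-04), AT1G01250 (0.29 ± 0.08, adjusted p = 0.0057) and CRF8 (0.23 ± 0.06, adjusted p = 0.0033). ANT was lower in ref6C than in ref6-3 as well (-0.27 ± 0.03, adjusted p = 2.1e-09).

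Between the double mutant and ref6C, 30 of the 52 tested members were called, a share close to that of all genes. The double mutant had 20 members higher and 10 lower than ref6C, where 30.7% and 30.6% of all genes were called. At 2-fold or more 9 were higher and 2 lower, against 3.31% and 5.70%. The 9 were HRE2, DREB19, ERF105, AT1G75490, SNZ, DREB26, DRN, ESE3 and AT4G32800, and the 2 were AT1G01250 and SHN3. HRE2, ERF105, AT1G75490, SNZ and DRN had no ref6C library at the limit of the filter and passed it through other genotypes. The 9 are therefore a description and no share is read from them. For HRE2 the log2 fold change was 4.35 ± 0.20 (adjusted p = 1.5e-16) and for DREB19 3.53 ± 0.15 (adjusted p = 3.8e-17). The call of DRN was lost without ref6C replicate 1, ref6C replicate 3 (adjusted p = 0.11) or double mutant replicate 2. The median over the 52 members was 0.15, and that over all genes -0.01.

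Adding jmj13G to the double mutant lowered more members than it raised. In the triple mutant 5 members were higher and 13 lower than in the double mutant, where 8.58% and 11.4% of all genes were called. At 2-fold or more, none was higher, by edgeR or DESeq2, and 3 were lower, HRE2, AT1G75490 and AT1G36060, against 0.419% and 0.879%, and 21 members had an unadjusted p below 0.05 in edgeR. The 13 lower members fell to 8 without triple mutant replicate 2 or double mutant replicate 1 and to 7 without double mutant replicate 3. DEWAX, HRE2 and AT4G32800 kept their calls under every alternative tried, while AT1G36060 lost its call without double mutant replicate 3. Those of AT4G16750 (-0.53 ± 0.17, adjusted p = 0.027) and AT5G61890 (-0.62 ± 0.21, adjusted p = 0.04) were each lost without several libraries. Higher were AT1G01250, AT1G12890, AT3G57600 and AT2G44940, and CRF7 (0.34 ± 0.12, adjusted p = 0.047), whose call was lost under 14 of the alternatives.

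Other genes of the pathway were read from lists. Of 56 AP2/ERF genes under other descriptions 48 were tested: the ref6-3 plants had 9 higher and 4 lower, ref6C 12 and 12, the double mutant 19 and 9, and the triple mutant 11 and 14, with medians of 0.05, 0.02, 0.12 and 0.00. RAP2.6L, a stress and wounding factor, had a log2 fold change of 3.19 ± 0.12 (adjusted p = 5.3e-19) in the double mutant, and ERF15, a factor of abscisic acid and defence responses, rose in ref6C from 1.31 ± 0.060 to 6.61 ± 0.96 CPM (2.33 ± 0.14, adjusted p = 3.5e-13). Within these 48, 8 ERF repressors had 3 higher in ref6-3, 4 in ref6C, 4 in the double and 2 in the triple mutant, and none lower. The 7 tested group IX defence factors counted none higher and 2 lower for ref6-3, 1 and 4 for ref6C, 3 and 1 for the double mutant and none and 3 for the triple mutant. None of the 3 tested RAV factors was higher, and none, 2, 1 and 3 were lower in the same order. Of 9 tested DREB relatives none was called in ref6-3, 1 was higher and 1 lower in ref6C and in the double mutant, and none and 1 in the triple mutant. The 7 floral and meristem factors had 3 and none in ref6-3, none and 1 in ref6C, 4 and 1 in the double and 3 and 1 in the triple mutant. Over the same comparisons 16.2% to 33.7% of all genes were called higher and 18.5% to 34.8% lower. Of 19 tested genes of ethylene synthesis and signalling, ref6-3 had 5 higher and 1 lower, ref6C 3 and 4, the double mutant 7 and 7, and the triple mutant 8 and 7. ACO4, an enzyme of the last step of ethylene synthesis, had 1.48 ± 0.04 (adjusted p = 7.7e-21) in the double mutant, and EIN2, the central transducer of the signal, had -0.85 ± 0.04 (adjusted p = 1.9e-16).

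Cold and drought genes that DREB factors are known to activate were mostly lower in ref6-3 and in the double and triple mutants. The part of the DREB members in these levels was not tested. Of 9 tested, ref6-3 had none higher and 8 lower, ref6C 2 and 3, the double mutant none and 8, and the triple mutant 1 and 7, with median log2 fold changes of -0.45, -0.04, -0.66 and -0.47. Of all genes, 16.2%, 18.4%, 33.7% and 32.0% were called higher in the same order, and 18.5%, 20.4%, 34.8% and 34.4% lower. RD29A was at 364 ± 9.9 CPM in WT, 110.2 ± 2.3 in ref6-3, 204 ± 5.7 in ref6C, 107 ± 1.7 in the double and 239 ± 3.6 in the triple mutant (-1.77 ± 0.03, adjusted p = 1.3e-26 for the double mutant against WT). ERD10 was at 403 ± 5.8 CPM in WT and 196 ± 1.9 in the double mutant (-1.04 ± 0.02, adjusted p = 3.4e-23). All 7 mature pollen markers were called lower than WT in every mutant. Their median log2 fold changes were -1.99 in ref6-3, -0.35 in ref6C, -2.41 in the double and -1.78 in the triple mutant. Their part in the levels of the cold and drought genes was not tested. Only 3 of 6 listed defence targets of ERF factors were tested, of which 3 were higher in ref6C and 2 in the double mutant.

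Over the comparisons with WT, 11 of the 52 tested members were called in none: HRE1, CRF7, TINY, ORA47, SMZ, AT1G19210, AT1G77200, AT1G77640, AT3G60490, AT4G13040 and AT4G28140. In all 4 mutants, 2 members were higher (AT5G61890 and CRF8) and 4 were lower (DREB2C, DEWAX, AT2G22200 and WRI1). Members higher in the double and triple mutants without a call in either REF6 mutant were SNZ, DRN, ESE3 and RAP2.4, and those lower in the same way were AT1G01250, AT2G44940, AT3G16280 and ERF53. SNZ and DRN had libraries at the limit of the filter only in the double and triple mutants. Their pattern was therefore in part a condition of being tested. The 4 comparisons share the 3 WT libraries, so these patterns are not independent of each other. The share of all genes with each pattern was not counted, so the numbers describe the members and show no trait particular to them. Of the 175 calls of members over the 7 pairwise comparisons, 38 were lost under at least 1 alternative; WRI1, for example, lost its call in ref6-3 and in ref6C without WT replicate 2, and ERF53 in the triple mutant without WT replicate 1 or 3 or triple mutant replicate 2 or 3. Those of AT3G16280 in the double mutant were lost without WT replicate 1, WT replicate 3 or double mutant replicate 2.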

How the data were processed

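RNA sequencing libraries of closed flower buds, 3 for each of 5 genotypes, were analysed from the deposited table of read counts and FPKM values per gene. Tools named without settings in the submitters' processing notes are DESeq2, RSEM 1.2.22 and STAR, with the genome build TAIR10. The deposited counts are whole numbers, and no source used here says if they are rounded RSEM estimates or strand-specific. FPKM values made by the authors served only to order levels between genes. The log2 fold changes and p-values that the authors deposited for their own comparisons were not used. CPM values, counts scaled to a common library size, were computed here from the counts with TMM scaling.

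The tests were edgeR 4.0.16 quasi-likelihood F-tests (R 4.3.3, limma 3.58.1) on all 15 libraries in 1 fit, after edgeR's filter on low counts left 22411 of 33323 genes, with Benjamini-Hochberg adjustment over those genes, called at an adjusted p below 0.05. The replicate spread was small, with a biological coefficient of variation of 2.51%. Alternatives were DESeq2 1.42.0, its size factors, no filter, at least 1 CPM in 3 libraries, the 2 compared groups alone, the replicate number as a block, and leaving out each library. Intervals and SEs cover the spread between libraries and counting error only. Same-numbered libraries did not deviate together, so the numbers were not used as pairs.

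The members and all lists were chosen with earlier results of these data known. Of 192 listed symbols, 21 were not found in the reference table and 136 lay outside the members. Genes were named for the largest log2 fold changes among called members with a mean of at least 1 CPM and no overlap between the libraries compared, for the highest FPKM, for their role, or for the smallest p in a list; DREB26, AT1G75490, AT1G12630 and others at least 2-fold apart were named because they make up a count. Classes and coordinates come from the RefSeq annotation of TAIR10.1, with which all 85 member identifiers matched. No protein sequences were used here.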

Additional observations from a re-analysis of the deposited data

How the results depend on the processing

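No call of a single member named for its fold change, FPKM or role reversed its direction under any alternative. The other tested members, among them AT1G12630, ERF53 and AT3G16280, were not part of this count. The member median in ref6C, 0.04, became -0.05 without WT replicate 2 and -0.02 without ref6C replicate 2. Over the tests of the members named in those ways, 6229 alternative values kept their side of the threshold, 33 passed it and 140 no longer did. Counts of all calls stayed within 1.5 times of the values given, under every alternative that kept all libraries. Among members at least 2-fold apart, a fit of the 2 compared groups alone gave 1 higher in ref6-3 and 1 higher in ref6C than in WT. Requiring 1 CPM in 3 libraries gave 1 lower in ref6-3, 1 higher in ref6C, 1 lower in ref6C than in ref6-3, and 1 lower in the triple than in the double mutant. The count lower in ref6C than in ref6-3 was also 1 with DESeq2, with the 2 groups alone and with the replicate block, which moved no other count by more than 1.5 times; same-numbered libraries had correlations of -0.107 to 0.101 over 30 pairs. Leaving out each library in turn gave the following ranges of members higher and lower. In ref6-3 they were 9 to 12 and 5 to 7 (2-fold 1 to 3 and 1 to 2), and in ref6C 4 to 10 and 13 to 17 (2-fold 0 to 2 and 4). In the double mutant they were 18 to 21 and 15 to 16 (2-fold 8 to 10 and 6 to 8), and in the triple mutant 15 to 17 and 13 to 16 (2-fold 8 to 9 and 5 to 7). For ref6C against ref6-3 they were 4 to 5 and 11 to 15 (2-fold 0 and 1 to 3), for the double mutant against ref6C 18 to 21 and 9 to 10 (2-fold 8 to 10 and 2 to 3), and for the triple against the double mutant 4 to 5 and 7 to 14 (2-fold 0 and 2 to 3). Any difference was called for 41 to 45 members. The cause of these shifts was not tested. Depth limits the members with few counts, DRN, SNZ, AT2G22200 and AT1G12630.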
